A study of Mus musculus with 13 samples.

Results

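The 42 genes described here encode the machinery of DNA replication: origin licensing, the MCM helicase and its activators, polymerases and primase, the sliding clamp and its loader, strand maturation, nucleotide supply and chromatin assembly. They were chosen by gene symbol from a fixed list, and all 42 were present among the 22048 genes shared by the 3 count tables of the study. Their RNA was read in 13 libraries from mouse cells on the path to, or already within, the regulatory T cell (Treg) lineage, enriched for CD4 with magnetic beads and then sorted by flow cytometry. The mice were of strain C57BL6/J, carried the Foxp3rfp reporter in every group, and were either wild type (cRel+/+Foxp3rfp) or lacked c-Rel (cRel-/-Foxp3rfp), the NF-kB subunit encoded by Rel. The thymus supplied pre-Tregs (2 wild-type and 3 knockout libraries) and de novo Tregs (2 of each genotype), and the spleen supplied Tregs (2 of each genotype). The question the design poses is how loss of c-Rel alters gene expression at successive stages of Treg life. No age and no treatment were among the labels used here, and none says whether libraries came from separate or pooled animals, so p-values measure the spread between libraries only.

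Replication starts when the origin recognition complex, Cdc6 and Cdt1 load the ring of Mcm2 to Mcm7 onto DNA in G1. In S phase Mcm10, Cdc45 and the GINS complex turn the loaded rings into moving helicases, primase and the polymerases copy both strands, and Pcna holds the polymerases on the template. Many of these genes are transcribed under E2F factors as a cell commits to division, so their summed RNA is commonly read as a trace of cycling cells. In lymphocytes c-Rel is known for driving proliferation after antigen receptor signals, and it is known in Tregs for its part in Foxp3 induction. In bulk RNA, fewer cycling cells and less replication RNA per cell cannot be told apart.

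Whole-library facts that bear on these genes were as follows. Deposited totals ran from 13656304 to 29866696 counts in pre-Tregs, 25122095 to 28235996 in de novo Tregs and 32291272 to 35114430 in splenic Tregs. Levels are given in CPM, counts scaled to a common library size with TMM factors over the 13 libraries, and a gene is called at an adjusted p under 0.05 by edgeR's quasi-likelihood test. Rel, the targeted gene, was at 104 and 99.6 CPM in wild-type pre-Tregs against 54.9, 52.2 and 65.9 in the libraries labelled knockout. De novo Tregs had 104 and 102 against 92.0 and 101, and spleen had 47.2 and 56.6 against 43.3 and 46.0. The knockout values lay below the wild-type values at each stage, but none of the 3 differences was called, and a count over the whole gene does not show which part of it was deleted. "Knockout" below therefore means the label. Foxp3 read 19.8 to 101 CPM in pre-Tregs and 682 to 921 in the other libraries, while Cd3e and Cd4 were high in all 13. Pre-Treg knockout replicate 2 stood apart: over all genes its counts differed from those of replicates 1 and 3 by a chi-square per degree of freedom of 132.6 and 71.3, against 28.3 between replicates 1 and 3 themselves. By the same measure the splenic knockout pair differed by 39.3, against 8.77 for the splenic wild-type pair. Gene-wise variation between replicates, as edgeR's common coefficient, came to 0.284 for the pre-Treg comparison, 0.0939 for de novo Tregs and 0.131 for spleen.

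The fitted difference in splenic Tregs had the same sign for every gene of the list, and promoters were searched for short sequence features. RefSeq promoter windows of 300 bases on build GRCm38.p6, from 250 bases before to 50 after the transcript start, were matched for 35 of the 42 genes. The letters TTTCCCGC, TTTGGCGC, TTTCGCGC and TTTGCCGC, which are forms of the E2F site, were searched on both strands with overlapping matches counted. At least 1 match was found for 13 of the 35 genes (37.14%), against 4.74% of the 9376 matched genes tested in splenic Tregs and 2.6% of 27025 genes with a window. CCAAT, the NF-Y box, was found in 22 of 35 (62.86% against 42.82% of genes tested in spleen), and TTTGAA, the core of the CHR element of late cell cycle genes, in 5 (14.29% against 14.17%). The 10-base NF-kB consensus matched 1 of the 35 windows, that of Mcm7 (2.86% against 6.34%). These are matches of letters and not measured binding.

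The first 4 stretches below hold E2F-type matches, printed in capitals, and the last 3 belong to the genes called in splenic Tregs that had a window and no such match. Each is given 5′ to 3′ on the gene's strand; 250 bases before the start are shown, except for Mcm3, whose 2 matches lie after it. RefSeq starts can differ from the gene spans used for counting, which overlap the stretches of Mcm3, Cdc6, Rfc5 and Tk1.

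Mcm5 (chr8:75109259-75109508, + strand): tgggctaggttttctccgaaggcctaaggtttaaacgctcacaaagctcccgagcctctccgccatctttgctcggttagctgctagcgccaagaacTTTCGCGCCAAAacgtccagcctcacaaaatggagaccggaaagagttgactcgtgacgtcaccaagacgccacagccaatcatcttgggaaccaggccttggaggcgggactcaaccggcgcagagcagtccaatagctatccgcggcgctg

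Mcm6 (chr1:128359706-128359955, - strand): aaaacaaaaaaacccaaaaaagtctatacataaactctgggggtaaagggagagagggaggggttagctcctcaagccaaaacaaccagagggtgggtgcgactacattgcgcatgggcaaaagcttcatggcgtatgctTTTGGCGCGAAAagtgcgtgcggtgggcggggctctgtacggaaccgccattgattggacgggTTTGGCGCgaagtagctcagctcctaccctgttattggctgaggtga

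Cdc6 (chr11:98907901-98908150, + strand): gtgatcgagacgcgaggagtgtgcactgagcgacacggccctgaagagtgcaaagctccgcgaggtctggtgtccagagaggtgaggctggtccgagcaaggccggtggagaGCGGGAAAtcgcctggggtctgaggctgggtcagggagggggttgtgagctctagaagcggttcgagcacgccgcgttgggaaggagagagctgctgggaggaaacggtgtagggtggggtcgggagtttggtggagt

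Mcm3 (chr1:20820267-20820293, - strand): GCGGGAAAacttgggaagtTTTGGCGC

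Tk1 (chr11:117826015-117826264, - strand): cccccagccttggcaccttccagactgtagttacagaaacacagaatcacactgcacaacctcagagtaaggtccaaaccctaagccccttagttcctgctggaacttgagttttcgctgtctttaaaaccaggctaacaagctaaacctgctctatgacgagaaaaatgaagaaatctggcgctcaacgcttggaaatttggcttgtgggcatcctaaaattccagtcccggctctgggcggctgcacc

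Rfc5 (chr5:117389024-117389273, - strand): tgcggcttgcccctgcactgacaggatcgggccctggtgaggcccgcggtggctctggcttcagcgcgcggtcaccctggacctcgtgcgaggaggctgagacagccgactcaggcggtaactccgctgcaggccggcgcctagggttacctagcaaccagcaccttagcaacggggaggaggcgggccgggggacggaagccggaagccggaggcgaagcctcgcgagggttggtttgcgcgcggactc

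Tyms (chr5:30073626-30073875, - strand): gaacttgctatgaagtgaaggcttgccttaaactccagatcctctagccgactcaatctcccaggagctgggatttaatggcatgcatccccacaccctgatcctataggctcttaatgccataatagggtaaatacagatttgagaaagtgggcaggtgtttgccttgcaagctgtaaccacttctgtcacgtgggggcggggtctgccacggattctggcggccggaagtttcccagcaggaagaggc

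In Mcm5 the capitals are 2 overlapping matches that begin 153 and 149 bases before the start. Mcm6 holds 3, at 110, 106 and 47 bases before it, Cdc6 holds 1, at 138 bases before it, and the pair of Mcm3 begins 19 and 38 bases after it. Mcm3 and Mcm5 each also held 3 CCAAT boxes in the full window and Mcm6 held 2, whereas Cdc6, Tk1, Rfc5 and Tyms held none. Having a match did not separate the genes by their genotype difference in spleen: the median log2 fold change was −0.58 for the 13 genes with an E2F-type match and −0.63 for the 22 without.

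Taken over the 42 genes, the mean log2 CPM was highest in knockout pre-Tregs and lowest in knockout splenic Tregs. In wild-type pre-Tregs it was 6.24 and 6.36, and in knockout pre-Tregs 6.65, 6.83 and 6.63. De novo Tregs read 5.89 and 5.75 in wild type and 5.92 and 5.86 in knockout. Splenic Tregs read 5.94 and 6.04 in wild type and 5.50 and 5.07 in knockout. The knockout libraries were above both wild-type libraries in pre-Tregs, mixed with them in de novo Tregs, and below both in spleen. The difference of group means was 0.40 in pre-Tregs, a factor of 1.32 upward, 0.07 in de novo Tregs, and −0.70 (a factor of 1.63 downward) in spleen. As a share of all counts on shared genes, the 42 genes took 0.502% and 0.554% in wild-type against 0.711%, 0.742% and 0.680% in knockout pre-Tregs, and 0.394% and 0.423% in wild-type against 0.314% and 0.243% in knockout splenic Tregs. No test was made on these sums, which describe a list chosen with earlier results known.

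**Figure D1:**
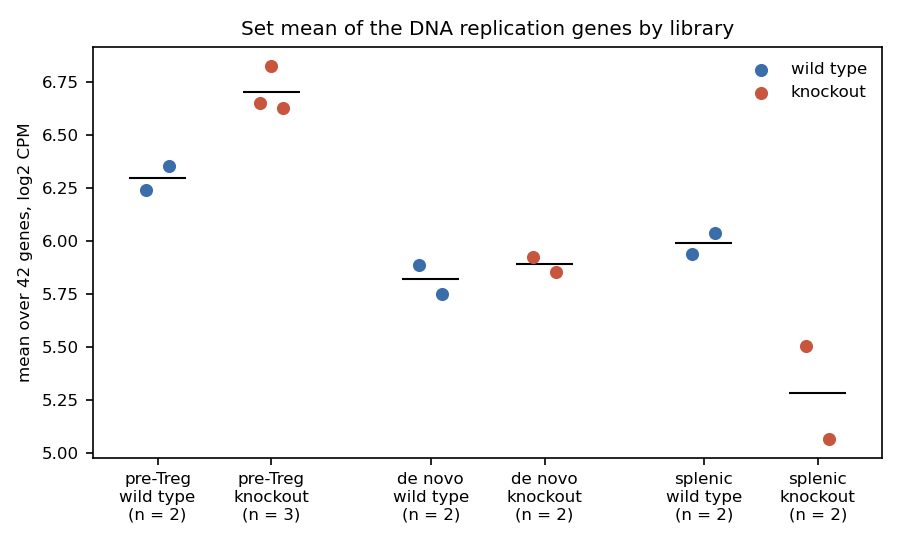
Mean log2 CPM over the 42 DNA replication genes (vertical axis) in each of the 13 libraries, with wild-type points in blue, knockout points in red, and a bar at each group mean. Knockout points lie above wild type in pre-Tregs, among them in de novo Tregs, and below them in splenic Tregs, where the 2 knockout libraries read 5.50 and 5.07.

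Levels per kilobase of gene length placed Mcm6, a helicase subunit, first of the 42 in all 6 groups. In wild-type splenic Tregs the mean levels were 102 CPM per kilobase for Mcm6, 85.2 for Mcm5, 67.8 for Mcm3 and 59.2 for Mcm4. The lowest were 2.31 for Orc1, the large ATPase subunit of the origin recognition complex, and 2.51 for Mcm10, the factor that helps start the loaded helicase. Mcm6 was also first in knockout spleen, at 71.9 CPM per kilobase, while Rrm2, the regulated subunit of ribonucleotide reductase, stood eighth in wild type at 45.9 and reached 18.6 in knockout. Gins4, Pold2, Rpa1 and Pold1, whose levels differed least by genotype there, accordingly held higher places in the knockout order.

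**Figure D2:**
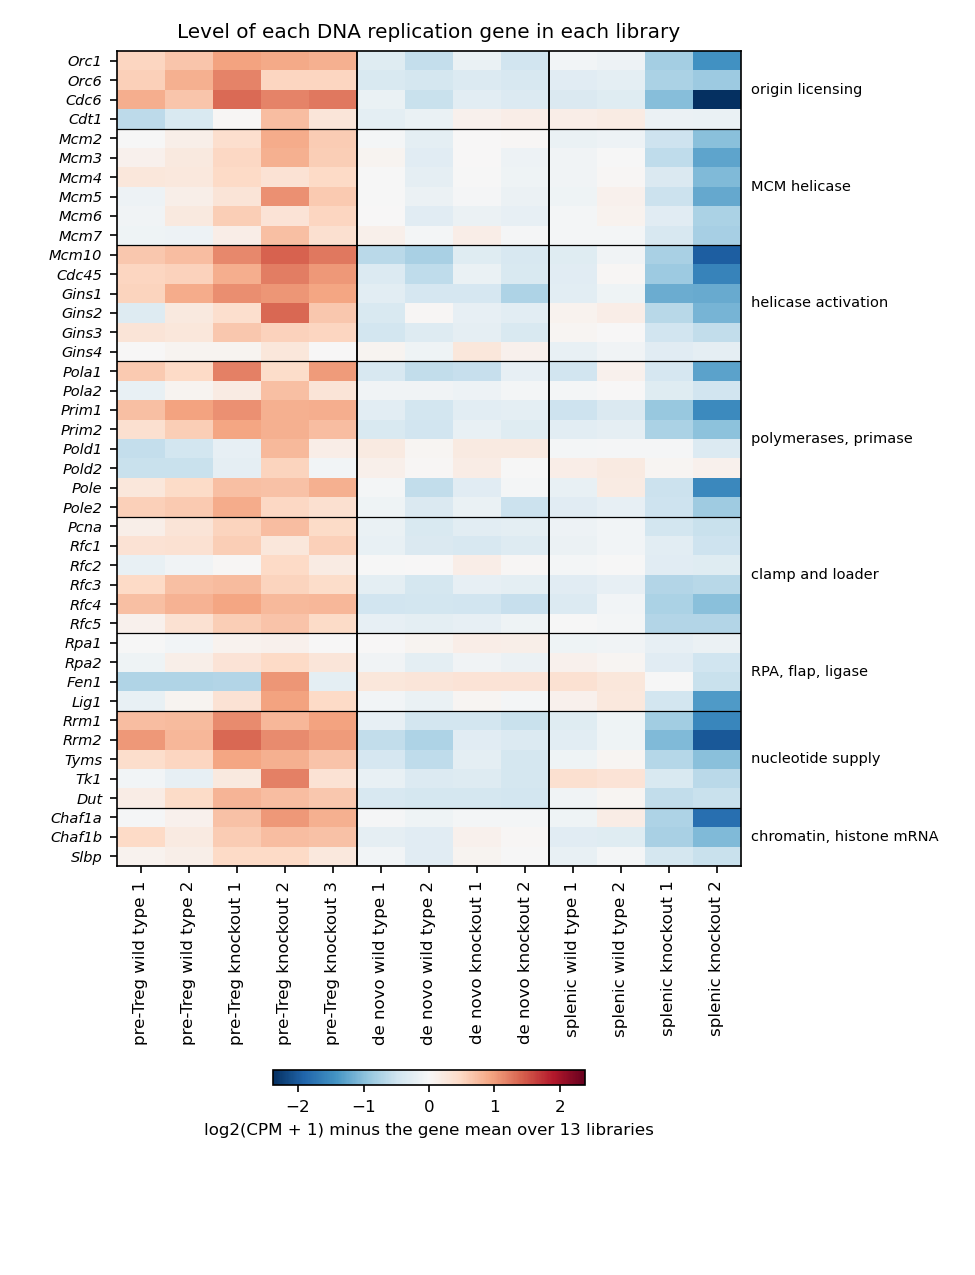
Level of each of the 42 genes (vertical axis, grouped by role) in each of the 13 libraries (horizontal axis), as log2(CPM + 1) minus the gene's mean over the 13 libraries. Pre-Treg columns are mostly red and the last column, splenic knockout replicate 2, is the bluest for 34 of the 42 genes.

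In splenic Tregs all 42 genes had a lower fitted level in knockout than in wild type, and 5 were called lower: Tk1, Rfc5, Tyms, Gins1 and Gins2. None was called higher. On build GRCm38 these genes lie at chr11:117815526-117826092 (Tk1), chr5:117378103-117389047 (Rfc5), chr5:30058202-30073617 (Tyms), chr2:150905400-150931280 (Gins1) and chr8:120578633-120589304 (Gins2), spans that cover all exons and introns of each. Over all 12264 genes tested, 0.758% were called lower and 0.612% higher. The 42 genes had a median log2 fold change of −0.64 against 0.00055 for all tested genes, and 16 of them (38.1%) lay below the 5th percentile of all genes, −0.75. An unadjusted p under 0.05 was reached by 36 of the 42, compared with 14.3% of all tested genes. The 2 knockout libraries lay below both wild-type libraries for 40 of the 42 genes, compared with 23.5% of all tested genes. The genes differed strongly in size of effect, from −1.30 for Rrm2 to −0.08 for Rpa1.

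Thymidine kinase, Tk1, which salvages thymidine for DNA synthesis, was at 47.2 and 45.6 CPM in wild-type and 27.7 and 22.8 in knockout splenic Tregs. Its difference was −0.88 on the log2 scale (SE 0.14, adjusted p = 0.0345 by edgeR), a fall of 1.83-fold. Tyms, the thymidylate synthase that makes the same nucleotide de novo, was at 69.9 and 78.3 against 46.8 and 37.2 CPM, and edgeR put the difference at −0.82 on the log2 scale (SE 0.14, adjusted p = 0.0444). Both knockout libraries were thus below both wild-type libraries for each of these enzymes of the thymidine supply. The reductase subunits were not called: Rrm2 was at 121 and 134 against 68.6 and 34.7 CPM (log2 fold change −1.30, SE 0.27, adjusted p = 0.0680), and Rrm1, the large subunit, had −0.96 (adjusted p = 0.0825). Dut, the dUTPase that keeps uracil out of DNA, had −0.55 (adjusted p = 0.0598). All 5 nucleotide genes had wild-type and knockout libraries that did not overlap.

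Gins1 and Gins2 belong to the 4-subunit GINS complex of the active helicase. Gins1 was at 7.99 and 9.0 CPM in wild-type and 3.73 and 3.66 in knockout splenic Tregs, and edgeR put the difference at −1.20 on the log2 scale (SE 0.21, adjusted p = 0.0451). Gins2 was at 16.9 and 17.9 against 9.68 and 6.87 CPM, and edgeR put the difference at −1.07 on the log2 scale (SE 0.20, adjusted p = 0.0491). For both genes the wild-type libraries lay above the knockout libraries. Gins2 shares 67.3% of its exon bases with Gse1 on the opposite strand, and whether reads were counted by strand is not given in the sources used here, so its count is uncertain. Gins3 had −0.58 and Gins4 −0.12, and neither was called, so the subunits of this complex spanned nearly the whole range of the list. Mcm10 had −1.16 (SE 0.36, adjusted p = 0.197) and Cdc45, which joins GINS in the active helicase, −1.12 (SE 0.24, adjusted p = 0.0745).

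In the clamp group the called gene was Rfc5, a small subunit of replication factor C, which opens the Pcna ring. It read 73.3 and 71.3 CPM in wild-type and 45.4 and 45.0 in knockout splenic Tregs, and edgeR put the difference at −0.68 on the log2 scale (SE 0.11, adjusted p = 0.0350). Its 2 knockout libraries lay close together and well below wild type. Pcna itself read 88.2 and 91.3 against 70.4 and 65.5 CPM, a log2 fold change of −0.40 that was not called (SE 0.11, adjusted p = 0.136). The other loader subunits ran from −0.71 for Rfc4 to −0.25 for Rfc2. Rfc5 shares 10.7% of its exon bases with Wsb2 on the other strand, and Rfc2 shares 15.1% with Lat2.

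None of the 6 MCM subunits was called in splenic Tregs, although all 6 had lower values in both knockout libraries. Mcm2 was at 263 and 268 CPM in wild-type and 209 and 145 in knockout. Mcm3 was at 248 and 261 against 172 and 109, and edgeR put the difference at −0.85 on the log2 scale (SE 0.19, adjusted p = 0.0802). Mcm4 was at 204 and 221 against 169 and 103. In each of these 3 the second knockout library was much the lower of the pair, which widened the spread. Mcm5 was at 272 and 311 against 203 and 124, with a log2 fold change of −0.83. Mcm6 was at 454 and 498 against 392 and 278, and Mcm7 at 204 and 204 against 161 and 120. Over the 6 subunits the log2 fold changes stayed between −0.85 and −0.51.

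Licensing factors had a larger and a smaller pair of differences, with no calls. Cdc6, the loader that recruits the MCM ring, was at 25.2 and 26.2 CPM in wild-type and 15.6 and 5.39 in knockout splenic Tregs, and edgeR put the difference at −1.29 on the log2 scale (SE 0.40, adjusted p = 0.188). Its partner Cdt1 was at 64.1 and 65.4 against 51.8 and 51.4, and edgeR put the difference at −0.33 on the log2 scale (SE 0.11, adjusted p = 0.216). Cdc6 had the larger difference and by far the larger disagreement between its knockout libraries, and Cdt1 the smaller of both. Orc1 had −1.19 and Orc6 −0.58, and neither was called.

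Polymerase genes covered most of the range of the list, with no calls. Pole, the catalytic subunit of the leading-strand polymerase, had a log2 fold change of −0.99, Prim1, the catalytic primase subunit, −0.78, and Prim2 −0.67, none of them called. Pole2 and Pola2, accessory subunits of polymerases epsilon and alpha, had −0.45 and −0.35. Pold1 and Pold2, subunits of the lagging-strand polymerase, had −0.13 and −0.12. Pold1 and Pola1, the catalytic subunit that works with primase, were the 2 genes of the list whose genotypes overlapped. At the end of the pathway Lig1, the ligase that seals Okazaki fragments, was at 105 and 116 CPM in wild-type and 71.6 and 37.9 in knockout (log2 fold change −1.01, SE 0.26, adjusted p = 0.118 by edgeR). Fen1, the flap nuclease, had −0.62, Rpa2 −0.46 and Rpa1, the large subunit of the single-strand binding protein, −0.08. Chaf1a, the large subunit of the histone chaperone CAF-1, read 37.0 and 45.5 against 23.7 and 10.7 CPM (log2 fold change −1.25, SE 0.32, adjusted p = 0.118), Chaf1b −0.64, and Slbp, which binds histone mRNA, −0.37.

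**Figure D3:**
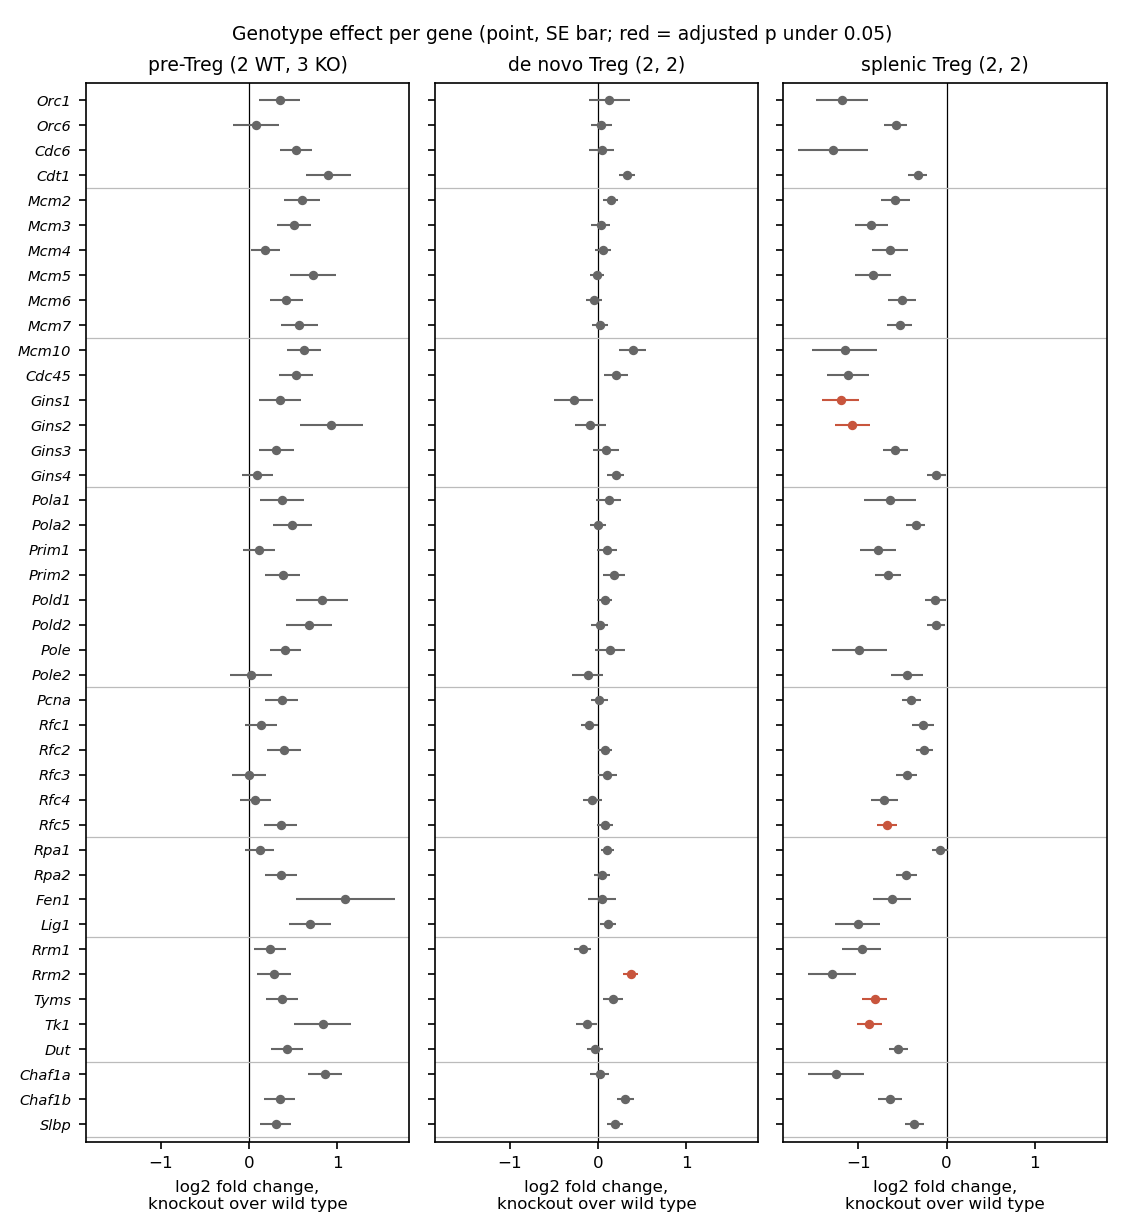
Log2 fold change of knockout over wild type for each of the 42 genes (horizontal axis) with its standard error, in pre-Tregs, de novo Tregs and splenic Tregs from left to right, with called genes in red. Points lie right of 0 for 41 genes in pre-Tregs and left of 0 for all 42 in splenic Tregs, where 5 are red; 1 is red in de novo Tregs.

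Splenic knockout replicate 2 carried the larger difference. It was the lowest of the 4 splenic libraries for 37 of the 42 genes and the lowest of all 13 for 34, with a median of −0.82 against the wild-type mean on the log2 scale. Knockout replicate 1 lay below the wild-type mean for 41 of 42, with a median of −0.51. The spread between the 2 knockout libraries was therefore large for most of the 42 genes. Over all genes, too, this pair differed more than the wild-type pair, with a chi-square per degree of freedom of 39.3 against 8.77. With 1 splenic library left out, the difference of the mean over the 42 genes ran from −0.92 to −0.48. Leaving out either wild-type library lost some of the 5 calls named above. With a lone library in a group, the test assumes that it varies as much as the pair it is compared with. DESeq2 called 22 of the 42 lower and limma-voom 6, and 1 fit of all 6 groups called 3. The share of all genes called under these settings is not given here. All 42 differences were negative in each of these fits except the one without knockout replicate 2, where 41 were. Pold1 was the gene that replicate 1 held above the wild-type mean.

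**Figure D4:**
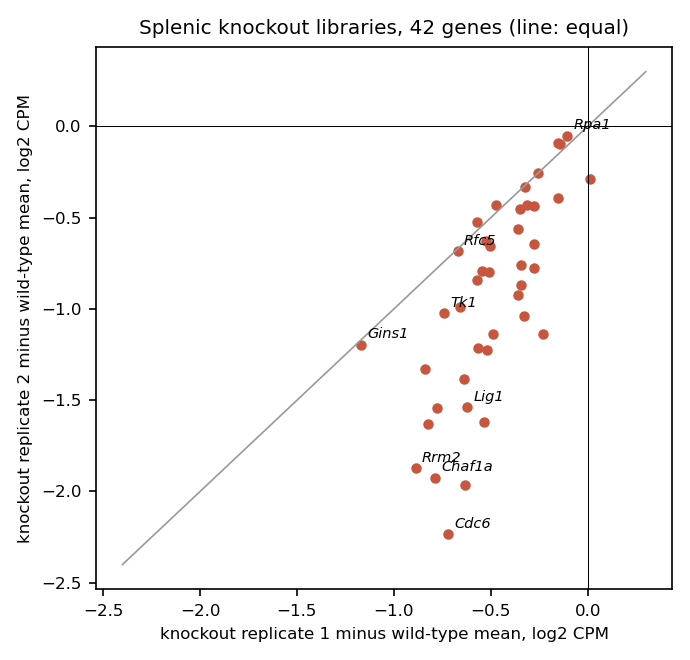
Difference of splenic knockout replicate 1 (horizontal axis) and replicate 2 (vertical axis) from the splenic wild-type mean, in log2 CPM, for the 42 genes as points, with the line of equal values. Replicate 2 lies below replicate 1 for 37 genes, with Cdc6, Chaf1a and Rrm2 far under the line, while Gins1 and Rfc5 lie on it.

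Marker genes of other cells also differed in level between the splenic libraries. Summed levels of 12 myeloid and dendritic markers were 196 and 228 CPM in wild-type against 168 and 145 in knockout libraries, and 10 of the 12 had a negative log2 fold change. Of these, Csf1r read 13.4 and 14.2 against 4.34 CPM in knockout replicate 1 and was at 0 in replicate 2. Those of 10 CD8 T and NK markers were 206 and 211 against 119 and 119, most of it Nkg7, with Cd8a under 1 CPM in all 4. B cell and plasma cell markers summed to 282 and 287 against 366 and 312, of which Xbp1 made up most. Pax5 was under 1 CPM in all 4. The part of these cells in the difference of the replication genes was not tested. A list of Treg and T cell genes summed to 6449 to 6930 CPM over the 4 libraries.

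In pre-Tregs none of the 42 genes was called in either direction by edgeR, in a stage where 0% of the 14746 tested genes were called higher and 0% lower. Fitted levels were higher in knockout for 41 of the 42, with a median log2 fold change of 0.38 against 0.03 for all tested genes. The exception, Rfc3, had −0.004. An unadjusted p under 0.05 was reached by 15 of the 42, compared with 6.57% of all tested genes. DESeq2 called 1 gene, Chaf1a, and limma-voom 0, and the share of all genes called by either is not given here. The 3 knockout libraries all lay above both wild-type libraries for 33 of 42 genes, compared with 13.4% of the 11854 tested genes that are also in the other tables.

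Chaf1a had the lowest p of the list in pre-Tregs. It was at 39.4 and 42.8 CPM in wild type and 65.6, 83.1 and 73.0 in knockout, and edgeR put the difference at 0.86 on the log2 scale (SE 0.20, adjusted p = 0.575). Cdt1 was at 36.7 and 44.5 against 58.2, 96.02 and 70.6, a log2 fold change of 0.90. Both genes had every knockout library above every wild-type library. Mcm10 was at 34.7 and 37.2 against 50.03, 60.0 and 53.9, and Cdc6 at 59.5 and 51.5 against 84.2, 74.8 and 78.7. Neither set of libraries overlapped, and the differences were 0.62 and 0.53. Chaf1a shares 18.7% of its exon bases with Ubxn6 on the other strand.

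The MCM subunits were higher in all 3 knockout pre-Treg libraries, uncalled. Mcm2 was at 289 and 323 CPM against 387, 542 and 444, and Mcm3 at 282 and 307 against 371, 476 and 397. Mcm4 had the smallest difference of the 6, 0.19, at 259 and 259 against 301, 275 and 299.7. Mcm5 had the largest difference of the 6, 0.72 (SE 0.26), at 266 and 318 against 358, 622 and 448. Mcm6 was at 442 and 551 against 710.2, 592 and 674, and Mcm7 at 194 and 193 against 233, 344 and 274. Replicate 2 was the highest knockout library for Mcm2, Mcm3, Mcm5 and Mcm7 and the lowest for Mcm4 and Mcm6.

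Other members were mixed in the same way. Pcna was at 105 and 119 CPM in wild-type and 139, 159 and 131 in knockout pre-Tregs, Tyms at 101 and 108 against 147, 136 and 121, and Lig1 at 86.4 and 103 against 125, 191 and 137. For all 3 the groups did not overlap. Rrm2 was at 294 and 249 against 373, 313 and 290.5, so its lowest knockout library fell between the wild-type values. Fen1 had the largest fitted difference, 1.09 with an SE of 0.56, and rested on 1 library: it was at 5.58 and 5.59 against 5.64, 21.3 and 8.12 CPM. Fen1 shares 84.2% of its exon bases with Tmem258 and Gm10143 on the other strand. Its count is therefore uncertain at every stage, for the reason given for Gins2. Pcna has a processed copy, Pcna-ps2, with 863 and 976 counts in wild-type and 1454, 2954 and 1204 in knockout pre-Tregs, so reads of the pair may have been divided.

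Replicate 2 also gave the highest pre-Treg value for 23 of the 42 genes, including 42.7 CPM for Gins2 against 12.7 to 25.5 in the other 4 libraries. Without it, the difference of the mean over the 42 genes was 0.34 and all 42 fitted differences were positive, with a median of 0.33. Markers of immature thymocytes summed to 655 and 783 CPM in wild type and 1695, 595 and 1085 in knockout pre-Tregs, so the groups overlapped. Dntt, the terminal transferase, was at 73.9 and 221 against 739, 142 and 411 CPM. Myeloid markers summed to 92.0 and 136 against 213, 146 and 150.1, and 11 of 12 had a positive log2 fold change. Whether either cell type has a part in the pre-Treg difference was not tested.

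In de novo Tregs the replication genes showed little difference by genotype. Rrm2 was called higher in knockout and no gene was called lower. Of all 11855 genes tested, 2.92% were called higher and 3.54% lower, so the share of the list called was no greater than the background. The median log2 fold change was 0.07 against −0.0027 for all tested genes, with 32 of 42 positive. Knockout libraries lay above both wild-type libraries for 13 genes and below for 3, compared with 22.9% and 24.8% of all tested genes. The precision here was the best of the 3 stages.

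Rrm2 was at 94.998 and 85.4 CPM in wild-type and 119 and 114 in knockout de novo Tregs. Its difference was 0.37 on the log2 scale (SE 0.09, adjusted p = 0.0294 by edgeR), and the groups did not overlap. The call was lost without wild-type replicate 2 (log2 fold change 0.30), without knockout replicate 1 (0.34) and in 1 fit of all 6 groups (0.37). Cdt1 was at 48.6 and 51.2 against 61.6 and 63.8 CPM, also without overlap (log2 fold change 0.33, SE 0.09, adjusted p = 0.0676). Chaf1b had 0.31 (adjusted p = 0.0990) and Mcm10 0.39 (adjusted p = 0.184), which was the largest fitted difference of the list.

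None of the MCM genes was called in de novo Tregs, with log2 fold changes from −0.05 for Mcm6 to 0.15 for Mcm2 and SEs of 0.08 (Mcm5) to 0.11 (Mcm3). Mcm5, for example, was at 290.4 and 264 CPM in wild type and 286 and 264 in knockout, and Mcm3 at 275 and 218 against 263 and 240.3. Mcm2 was at 285 and 251 against 294 and 298, Mcm4 at 214 and 185 against 213 and 202, Mcm6 at 471 and 392 against 427 and 408, and Mcm7 at 229 and 203 against 234 and 205. Only for Mcm2 did the knockout libraries of this group lie above both wild-type libraries. Pcna was at 85.2 and 74.2 against 79.6 and 81.4, Cdc6 at 28.7 and 22.1 against 26.8 and 25.5, Tyms at 57.3 and 49.3 against 64.0 and 55.9, and Lig1 at 92.9 and 87.1 against 101 and 94.4. Of these 4 Lig1 alone had groups that did not overlap, at a log2 fold change of 0.12.

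Across stages, the step from pre-Treg to de novo Treg held most of the calls. In wild type 21 of the 42 genes fell and 1, Pold2, rose, against a background of 14.7% of 13058 genes called lower and 16.1% higher. The median log2 fold change was −0.48. In knockout 33 fell and none rose, against 17% lower and 15.4% higher, with a median of −0.83. The 21 genes that fell in wild type were all among the 33 that fell in knockout. These comparisons set count tables against each other, so stage and table cannot be told apart. Immature thymocyte markers were lower over the same step, with 4 of 12 called lower in wild type (median −1.07) and 7 of 12 in knockout (median −1.22). Their sums ranged from 595 to 1695 CPM in pre-Tregs and from 377 to 470 in de novo Tregs. Of 12 myeloid and dendritic markers 4 were called lower in knockout and 0 in wild type. The part of either cell type in the stage difference was not tested.

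By role, the calls of this step are given as counts, and differences between roles were not tested. Of the nucleotide supply genes 4 of 5 fell in wild type and 5 of 5 in knockout: Rrm2 went from 294 and 249 CPM in wild-type pre-Tregs to 94.998 and 85.4, and edgeR put the difference at −1.59 on the log2 scale (SE 0.25, adjusted p = 9.6e-04). Helicase activation had 4 of 6 called lower in wild type and 5 of 6 in knockout, and licensing 3 of 4 in each. The clamp and its loader had 5 of 6 in each, the polymerases and primase 4 of 8 and 6 of 8, the chromatin and histone mRNA group 1 of 3 and 3 of 3, and the RPA, flap and ligase group 0 of 4 and 1 of 4. Rfc4 of the clamp loader had the smallest adjusted p in both genotypes, with log2 fold changes of −1.25 in wild type and −1.37 in knockout. None of the 6 MCM genes was called in wild type, where their median was −0.20, and 5 of 6 were called lower in knockout, with a median of −0.64. Gins1 had the largest fall in knockout, −1.75 (SE 0.20, adjusted p = 6e-05), from 22.1, 21.3 and 19.6 to 7.10 and 5.44 CPM.

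Pold2, an accessory subunit of polymerase delta, ran the other way in wild type, at 62.8 and 62.7 CPM in pre-Tregs and 98.7 and 92.7 in de novo Tregs (log2 fold change 0.61, SE 0.20, adjusted p = 0.0389 by edgeR). The call was lost with library size alone and without any 1 of the 4 libraries. Pold1, its catalytic partner, had 0.64 (adjusted p = 0.0610) and was not called, and Fen1 had 1.11 (adjusted p = 0.0882). In knockout the same step gave −0.04 for Pold2 and −0.10 for Pold1.

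From de novo to splenic Tregs the genotypes gave different counts. In wild type the edgeR fit of all 6 groups called no gene of the list, against 3.5% of all genes called higher and 3.95% lower. An unadjusted p under 0.05 was reached by 4 of 42, compared with 21.5% of all tested genes. The common coefficient of variation was 0.189 in that fit, against 0.0939 and 0.131 in the fits of de novo and splenic Tregs alone. With only the groups compared, edgeR did call genes of the list higher, as counted below, so the absence of calls depended on the fit. DESeq2 called 3 higher, and its share over all genes is not given here. The median log2 fold change was 0.15 and 33 of 42 were positive. Tyms had the smallest adjusted p, 0.0887, at a log2 fold change of 0.48. In knockout 15 genes fell and none rose, against 6.39% lower and 6.48% higher, with a median of −0.54 and 42 of 42 negative. Stage, tissue and count table cannot be told apart in this comparison.

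The 15 included Chaf1a, Chaf1b and Slbp, which are all 3 genes of the chromatin and histone mRNA group. Chaf1b, the second CAF-1 subunit, had the smallest adjusted p. It was at 57.7 and 54.5 CPM in knockout de novo Tregs and 31.1 and 25.4 in knockout splenic Tregs, and edgeR put the difference at −0.99 on the log2 scale (SE 0.14, adjusted p = 9e-04). Prim1 was at 40.7 and 41.4 against 25.7 and 16.4 (log2 fold change −0.96, adjusted p = 0.00657), and Rrm2 at 119 and 114 against 68.6 and 34.7 (−1.17, adjusted p = 0.00823). The splenic libraries were below the de novo libraries for each of the 3. Tk1 and Dut, by contrast, had −0.14 and −0.13 and were not called. Without splenic knockout replicate 2, 1 of the 15 was still called, and without de novo knockout replicate 1 or 2 the number was 2 or 3. Without splenic knockout replicate 1 it was 12.

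**Figure D5:**
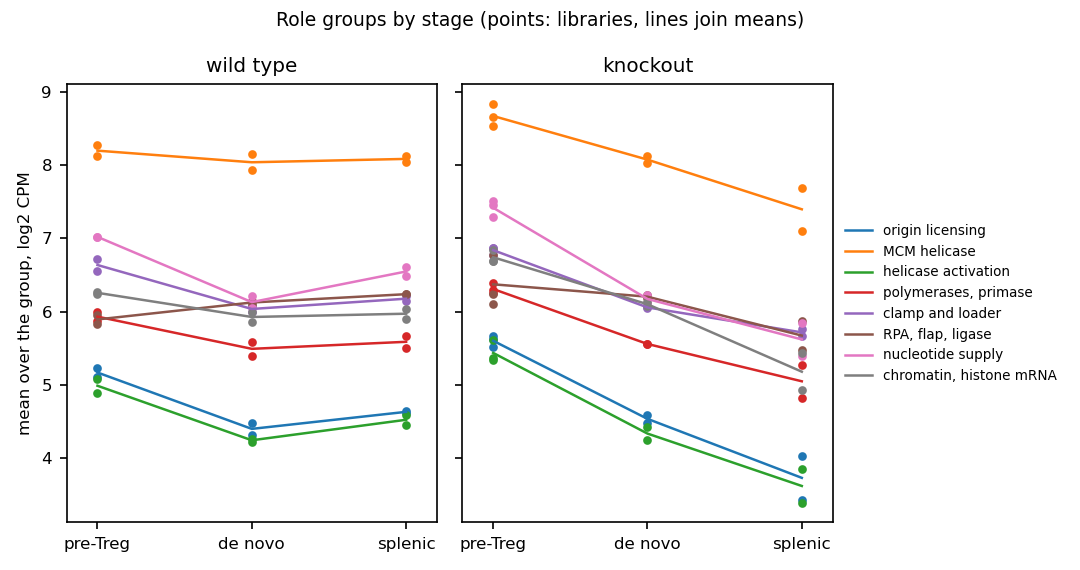
Mean log2 CPM of the genes of each role (vertical axis) in pre-Tregs, de novo Tregs and splenic Tregs (horizontal axis), for wild type on the left and knockout on the right, with libraries as points and lines joining group means. In knockout every line falls from pre-Treg to spleen, while in wild type the nucleotide supply line falls and partly returns and the MCM line is nearly level.

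Whether the genotype effect differed between stages was tested directly. Between splenic and pre-Tregs, 2 genes were called: Chaf1a, with a difference of log2 fold changes of −2.10 (SE 0.37, adjusted p = 0.0464 by edgeR), and Rfc5, with −1.02 (SE 0.18, adjusted p = 0.0484). All 42 differences were negative, with a median of −1.01, and 0.176% of all 13058 genes were called lower. Chaf1a had 0.86 in pre-Tregs and −1.25 in spleen, and Rfc5 0.36 and −0.68. Rfc5 was at 79.0 and 95.7 CPM in wild-type pre-Tregs against 112, 119 and 101 in knockout, above both wild-type libraries, and below both in spleen. Tyms missed the threshold at −1.18 (adjusted p = 0.0502). Both calls were lost when either wild-type pre-Treg library, pre-Treg knockout replicate 3, either wild-type splenic library or splenic knockout replicate 2 was left out. Without splenic knockout replicate 1 the Rfc5 call was lost too. Without pre-Treg knockout replicate 1 or 2, 23 or 27 of the 42 were called, and DESeq2 called 30. The share of all genes called under these settings is not given here. Of the related genes, Uhrf1, which brings maintenance methylation to new DNA, was also called, at −2.04 (SE 0.32, adjusted p = 0.0437).

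Between splenic and de novo Tregs no difference of genotype effects was called by edgeR among the 42. Of all 13058 genes, 0% were called lower and 1 gene higher. All 42 differences were negative with a median of −0.71, and DESeq2 called 6. The share of all genes that DESeq2 called is not given here. An unadjusted p under 0.05 was reached by 27 of the 42, compared with 4.52% of all tested genes. Rrm2 had the largest, −1.67 (SE 0.35, adjusted p = 0.147). Between de novo and pre-Tregs none of the 42 was called, against 0.0766% of all genes called lower. There 37 of 42 were negative, the median was −0.30, and DESeq2 called 0. An unadjusted p under 0.05 was reached by 6 of the 42, compared with 10.2% of all tested genes.

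The size of the splenic difference varied from gene to gene along with the stage difference in libraries that it does not share. Across the 42 genes, the splenic log2 fold change and the wild-type change from pre-Treg to de novo Treg had a Pearson r of 0.543 and a Spearman rho of 0.542. With the knockout change over the same step they were 0.772 and 0.737. With the genotype difference in pre-Tregs the values were −0.209 and −0.207, and with that in de novo Tregs −0.0187 and −0.0275. These describe 42 genes, which share libraries and are not independent replicates.

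The wider pathway was read from lists of related genes. Of 43 matched genes with other roles in replication, 1 was called lower in spleen (against 0.758% of all tested genes), Asf1b, a histone chaperone that hands histones to CAF-1. It was at 70.8 and 82.7 CPM in wild-type and 45.1 and 33.0 in knockout, and edgeR put the difference at −0.97 on the log2 scale (SE 0.17, adjusted p = 0.0425). In de novo Tregs it was at 59.6 and 50.9 against 74.9 and 74.2 and was called higher, at 0.43 (SE 0.10, adjusted p = 0.0281). In spleen 38 of the 43 had a negative log2 fold change and their median was −0.30.

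None of 13 E2F and pocket protein genes was called in spleen, where 11 were negative with a median of −0.23. Rbl2, which encodes the pocket protein p130 of resting cells, was called lower in de novo Tregs, at 256 and 247 CPM in wild-type and 173 and 186 in knockout (log2 fold change −0.49, SE 0.08, adjusted p = 0.00305 by edgeR). Of 19 replication checkpoint and repair genes none was called in spleen, where 15 were negative with a median of −0.51. Fanci, a Fanconi anaemia protein that guards stalled forks, was called lower in de novo Tregs, at 34.7 and 33.0 against 23.0 and 25.8 (log2 fold change −0.47, SE 0.12, adjusted p = 0.0366). The Fanci call was lost without wild-type replicate 1, wild-type replicate 2 or knockout replicate 1, and the de novo calls of Fanci, Rbl2 and Asf1b were all lost in 1 fit of all 6 groups. The splenic counts of the lists moved with the setting: DESeq2 called 9 of the 43, 4 of the 13 and 5 of the 19 lower. With no low-count filter edgeR called 10, 3 and 5, and limma-voom called 2, 0 and 2. The share of all genes called under these settings is not given here. In pre-Tregs none of the 3 lists had a call, with medians of 0.17, 0.10 and 0.18 in the order given.

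Most calls in these lists again came from the step between pre-Treg and de novo Treg. Of the 43 genes 24 fell and 3 rose in wild type, where 14.7% and 16.1% of all genes did. In knockout 28 fell and 2 rose, against 17% and 15.4%. Dbf4, the activator of the Cdc7 kinase that fires origins, had log2 fold changes of −1.28 in wild type and −1.40 in knockout. Gmnn, the Cdt1 inhibitor geminin, fell by 1.28 in knockout. Samhd1, a dNTP hydrolase, was the opposite, with 1.59 and 2.24. Among E2F genes E2f8 had −1.52 and −1.67 and Tfdp2 −1.16 and −1.21, and among checkpoint genes Cdc25a, the phosphatase that activates Cdk2, had −1.04 and −1.25. All of these were called by edgeR. From de novo to splenic Tregs, 9 of the 43 fell in knockout (against 6.39% of all genes), including Atad5, an unloader of Pcna, at −1.18, and Timeless, a fork protection factor, at −0.97. None of the 43 was called in wild type, where edgeR's smallest adjusted p was 0.147. There 4 had an unadjusted p under 0.05, compared with 21.5% of all tested genes. E2f8 and E2f1 fell by 1.34 and 1.15 in knockout, and Rb1, the retinoblastoma gene, fell in both genotypes, by 1.14 in wild type and 1.25 in knockout.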

How the data were processed

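RNA-seq gene counts were deposited by the authors in 3 tables, 1 for each stage: 47729 genes with gene lengths for pre-Tregs, and 22048 protein-coding genes for de novo and splenic Tregs. Per the submitters' processing notes, the tools named were FastQC, MultiQC, STAR 2.5.2, Picard 2.9.0, featureCounts of Subread 1.5.2 and limma, with build GRCm38. Neither the annotation release nor the strand setting is given in the sources used here.

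From the deposited counts, genotype was tested within each stage with edgeR 4.0.16 (R 4.3.3; TMM factors, quasi-likelihood F-test, a minimum count of 10 in filterByExpr, Benjamini-Hochberg adjustment over all tested genes). Stage comparisons and differences of genotype effects came from 1 fit of all 6 groups on the 22048 shared genes. All 42 genes passed the filter in each fit. Mean log2 CPM used a prior count of 2. Standard errors are those implied by the fitted log2 fold change and its F statistic. The calls were tested on simulated data with 200 genes changed: at a 2-fold change 3%, 73% and 73% were recovered for pre-Treg, de novo and splenic comparisons. At a 1.5-fold change 0%, 53% and 35% were recovered.

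The 42 genes and the lists were chosen with earlier results of these data known. Library values are given for up to 8 called genes in each genotype comparison (the 4 with the lowest p where none was called), for Mcm2 to Mcm7, Pcna, Cdc6, Cdt1, Rrm2, Tyms and Lig1 at every stage, and for up to 4 genes called in a difference of effects. Up to 3 called genes were named for each of the related lists and comparisons. A result that this rule would name in the checkpoint list is not reported here. Fen1 and Gins2 in pre-Tregs, Pold1 and Pold2, Orc1, Gins4 and the marker genes given by name were chosen after their values were seen. Marker lists stood for the Treg and T cell identity itself, immature thymocytes, thymic stroma, the myeloid and dendritic series, B lineage cells up to plasma cells, cytotoxic (CD8 and NK) cells, and red cells with platelets. The erythroid list read 112 CPM in wild-type de novo replicate 1 and under 4 CPM in the other 3 de novo libraries, and the stroma list 187 to 329 CPM over pre-Treg and de novo libraries. Alternatives were RLE size factors, library size alone, no low-count filter, DESeq2 1.42.0, limma-voom (limma 3.58.1), a replicate block, 1 joint fit or only the groups compared, and leaving out each library.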

Additional observations from a re-analysis of the deposited data

Results flagged for a closer look

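A test of the difference between stages called 2 genes. All 42 differences were negative with a median of −1.01, so the calls do not set the 2 genes apart from the list. Both calls depended on which libraries were kept, as given above. The genotype effect on Chaf1a, the large CAF-1 subunit, was −2.10 lower on the log2 scale in splenic Tregs than in pre-Tregs. For Rfc5, of the clamp loader, the difference was −1.02. Both adjusted p-values by edgeR, 0.0464 and 0.0484, lay just under 0.05. Part of the exon bases of each lies across from a gene on the other strand, 18.7% for Chaf1a and 10.7% for Rfc5, and the part of those genes in the counts was not tested.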

How the results depend on the processing

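The number of genes called depended on the setting, and in de novo Tregs so did the number of negative differences. In spleen the 5 lower calls became 23 with no low-count filter, 22 with DESeq2, 3 in 1 fit of all groups, and 11 to 39 when 1 library was left out. The 5 genes were still called under RLE size factors, library size alone, no filter, DESeq2 and limma-voom, and 2 of them in 1 fit of all groups. Without wild-type replicate 1 or 2, 4 or 2 of them were still called. In pre-Tregs DESeq2 called 1 gene higher. In de novo Tregs the higher count was 0 in 1 fit of all groups and 0 to 1 with a library left out. From pre-Treg to de novo Treg in wild type, the higher count of 1 was 0 with library size alone, 2 with no filter, 2 with DESeq2, 3 with only the groups compared and 0 without any 1 library, and the lower count of 21 was 11 to 17. In knockout that step gave 0 to 1 higher and 20 to 34 lower. From de novo to splenic Tregs, wild type gave 3 higher with DESeq2 and 9 with only the groups compared, and knockout gave 24 lower with DESeq2 and 1 to 18 with a library left out. For splenic minus de novo effects, the lower count was 1 with no filter, 6 with DESeq2 and 0 to 5 with a library left out. For splenic minus pre-Treg effects it was 21 with no filter, 30 with DESeq2, 1 with limma-voom and 0 to 27 with a library left out. The number of all genes called also moved when a library was left out, and its share under each setting is not given here. The cause was not tested.

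Among the genes that were refitted singly, the changes of sign lay in de novo Tregs with a library left out. Over all 42 genes, the number of negative differences also moved with a library left out. It ran from 0 to 4 in pre-Tregs (1 in the main fit) and from 41 to 42 in spleen (42 in the main fit). From de novo to splenic Tregs in wild type it ran from 4 to 12 (9 in the main fit). In de novo Tregs the number by genotype ran from 7 to 20 (10 in the main fit). There, without wild-type replicate 2, Mcm3 had −0.13, Mcm4 −0.042, Mcm7 −0.058, Pcna −0.079 and Cdc6 −0.13. Without knockout replicate 1, Mcm3 had −0.037 and Mcm7 −0.073. Leaving out wild-type replicate 1 gave 0.058 for Mcm5 and 0.094 for Mcm6, and leaving out knockout replicate 2 gave 0.052 for Mcm5. Over all libraries left out, the ranges were −0.13 to 0.21 for Mcm3, −0.042 to 0.16 for Mcm4, −0.078 to 0.058 for Mcm5, −0.17 to 0.094 for Mcm6, −0.073 to 0.13 for Mcm7, −0.079 to 0.12 for Pcna and −0.13 to 0.24 for Cdc6.

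Deviations of same-numbered libraries had correlations of −0.176, −0.0202 and −0.106 for pre-Treg, de novo and splenic Tregs. With so few libraries in each group, these values cannot show whether the numbers mark pairs. For the pre-Treg knockouts the number in the title and the one in the description disagree, so the pre-Treg value and block rest on the titles. With the replicate block 18 genes were called lower in spleen, and 0 for splenic minus pre-Treg effects. With crossed pairing in spleen, added after seeing the data, 30 were called lower. What depth limits was not tested apart from the spread between libraries.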
